A study of Homo sapiens with 2 samples.

Results

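The genes of heat shock proteins and other molecular chaperones were compared between A549 cells overexpressing MYOCD (MYOCD) and wild-type A549 cells (WT). The genes were chosen by symbol: the HSP70 (HSPA), HSP110 (HSPH1), HSP90, HSP60 and HSP10 (HSPD1, HSPE1) and small heat shock protein (HSPB) families, the J-domain families DNAJA, DNAJB and DNAJC, the subunits of the cytosolic chaperonin (TCP1 and the CCT genes), BAG1 to BAG6, calreticulin, calnexin and the protein disulfide isomerases. The rule matched 95 of 56255 symbols, and HSPA7 and DNAJB3, which GENCODE annotates as pseudogenes, were left out, so that 93 genes remained. The rule uses symbols only, but it was set with earlier results of these data known. At least 1 RPKM in at least 1 of the libraries was reached by 80 of the 93, and the 13 others were under that level in both.

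A549 is an established cell line from a human adenocarcinoma of the lung. MYOCD encodes myocardin, which works with the transcription factor SRF to turn on genes of heart and smooth muscle. Cells of both groups were kept in DMEM with serum, and TruSeq libraries of their total RNA were sequenced, with 1 library in each group. The vector, the time of expression, whether the MYOCD cells were a clone or a pool, and whether WT carried an empty vector are not stated in the labels. RPKM counts reads for each kilobase of gene model, scaled to a common library size, so it can be set side by side between genes. With a single library in each group there was no replicate error and no test. Each difference below compares those libraries, and culture, library and MYOCD cannot be told apart.

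MYOCD itself stood at 48.6 RPKM in the MYOCD library and 0.304 RPKM in WT, in the direction of the labels. The deposited RPKM summed to 880876 in MYOCD and 886700 in WT, and 15973 and 16161 genes reached 1 RPKM. The 6 epithelial markers checked reached 1 RPKM in at least 1 library, and their levels differed in both directions. KRT18 stood at 1134 RPKM in MYOCD and 1647 in WT, KRT8 at 1059 and 1523, KRT7 at 1386 and 996, and EPCAM at 2.57 and 0.889, while CDH1 (35.8 and 35.01) and KRT19 (3.24 and 2.94) were closer to level. None of 5 fibroblast, 5 endothelial and 5 blood cell markers reached it in either library, and 4 of the 5 endothelial markers were listed at 0 in both libraries. In bulk RNA, fewer cells that express a gene and less of its RNA in each cell cannot be told apart.

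Chaperones bind unfolded or partly folded proteins and keep them from aggregating. HSP70 works in cycles of ATP hydrolysis, with J-domain proteins that deliver substrates and start the hydrolysis. Nucleotide exchange factors, such as HSP110 and several BAG proteins, end each cycle. HSP90 takes over late folding steps of kinases and steroid receptors, the chaperonins enclose their substrates in a ring (actin and tubulin are the best known for the cytosolic one), and calnexin, calreticulin and the disulfide isomerases serve proteins on their way to secretion. Many of these genes answer to heat shock factor HSF1, and those of the endoplasmic reticulum (ER) to the unfolded protein response.

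Chaperone genes stood slightly higher in MYOCD, and the differences were small. Changes are given as log2((MYOCD RPKM + 0.5)/(WT RPKM + 0.5)), a scale on which the added 0.5 RPKM shrinks the change of low genes, while ratios are those of the deposited values. Of the 80 genes past the filter, 56 (70.0%) lay above 0 on this scale, where 49.8% of all 17350 genes past the same filter did, and their median log2 change was 0.11, against a median of -0.00 over all genes. At or beyond 1.2-fold 24 (30%) were higher and 10 (12.5%) were lower in MYOCD, where the shares over all genes were 25.5% and 27.4%. At or beyond 1.5-fold CCT5, HSPA12A, DNAJB4, DNAJC12 and HSPA1A were higher and HSPA2, HSPB8, DNAJC4, DNAJC27 and DNAJC6 were lower, 5 each, where 11.6% and 13.2% of all genes were. None of the 80 was at or beyond 2-fold in either direction on the log2 scale, where 5.42% of all genes were higher and 6.35% were lower. These counts have no replicate check. Just inside the filter lay HSPA12B, DNAJB7, HSPA1L, DNAJC27 and DNAJB5, with a higher value of 1.01 to 2.35 RPKM, and just outside it CCT6B, HSPB6, DNAJA4, DNAJB13 and DNAJC28, with 0.296 to 0.886 RPKM.

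The median level of the 80 genes was 28.9 RPKM in MYOCD and 27.02 RPKM in WT, above the 8.92 and 9.16 RPKM of all 17350 genes. The 65 chaperone genes with a mean of at least 10 RPKM were also set beside the 7456 protein-coding genes at that level. Above 0 lay 48 of the 65, where 50.9% of the coding genes did. At or beyond 1.2-fold 19 (29.2%) of them were higher and 4 (6.15%) were lower, where 19.4% and 19% of the coding genes were. At or beyond 1.5-fold CCT5, HSPA12A, DNAJB4 and HSPA1A were higher and HSPA2 and DNAJC4 were lower, where 4.88% and 4.99% of the coding genes were. None was at or beyond 2-fold, where 1.27% and 1.31% of the coding genes were.

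The more abundant chaperone genes lay above 0 more often than the less abundant ones. Of the 26 with a mean of at least 100 RPKM, 23 were above 0, 7 stood at least 1.2-fold higher and 0 that far lower, and the median was 0.14, where HSP90AA1, CANX and CCT5 were among the higher ones. Among all 902 protein-coding genes at that level 52.5% were above 0, 14.5% were higher and 12.6% were lower by the same rule, with a median of 0.01. Of the 39 chaperone genes with a mean of 10 to 100 RPKM, 25 were above 0, and of the 15 counted genes with a mean under 10 RPKM, 8 were. Summed over the 93 genes, chaperone RPKM came to 11211 in MYOCD and 9910.0 in WT, a ratio of 1.13, or 1.27% and 1.12% of all RPKM. The 5 most abundant genes of each library held 36.5% of that sum in MYOCD and 36.1% in WT.

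**Figure D1:**
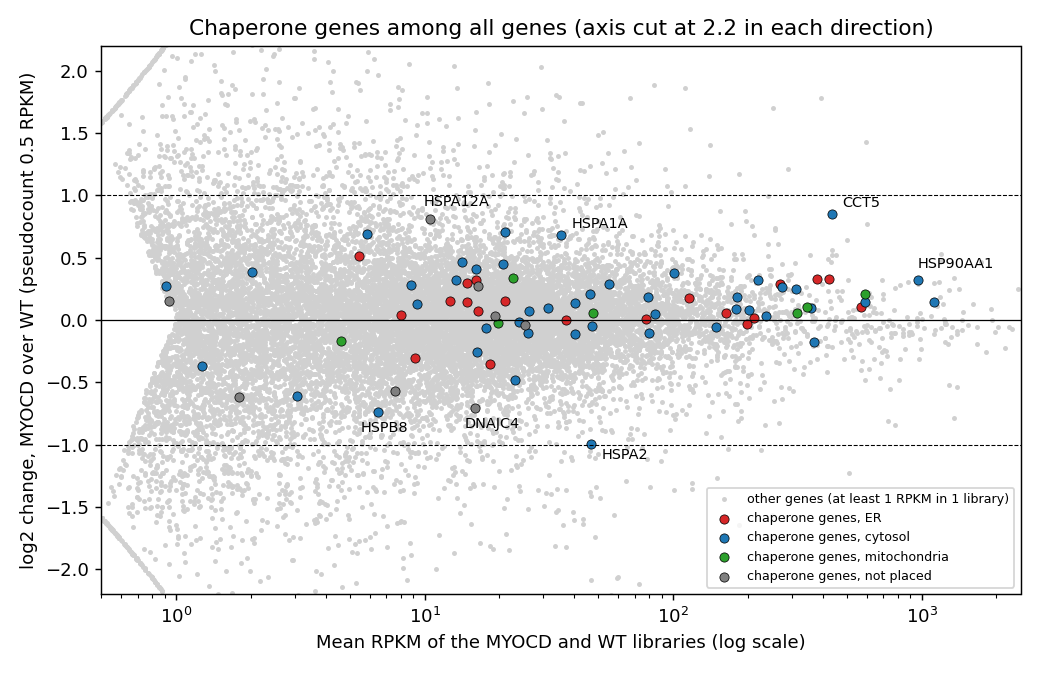
log2 change of MYOCD over WT (vertical axis) against the mean RPKM of the 2 libraries (horizontal axis, log scale) for the 80 chaperone genes past the 1 RPKM filter, coloured by compartment, over all other genes past it in grey. The dashed lines mark 2-fold. CCT5 stands alone among the abundant chaperone genes at 0.85, HSPA2 lies on the lower line, and the other abundant genes lie close to 0.

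The HSP70 genes held some higher genes and also the chaperone gene with the lowest change. HSPA8, the constitutive cytosolic HSP70 and the most abundant chaperone gene of both libraries, stood at 1178 RPKM in MYOCD and 1067 RPKM in WT. The mitochondrial HSPA9 (mortalin) stood at 321 and 309 RPKM in MYOCD and WT, and HSPA5 (BiP), the HSP70 of the ER lumen, at 166 and 159 RPKM. HSPA8, HSPA9 and HSPA5 differed by 1.04 to 1.10 times between the libraries. HSPA8 made up 57.8% of the summed RPKM of the 14 family members in MYOCD and 56.3% in WT.

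The stress-inducible genes HSPA1A and HSPA1B were higher in MYOCD at a far lower level. HSPA1A stood at 43.7 RPKM in MYOCD and 27.0 in WT, a ratio of 1.62, and HSPA1B at 23.95 and 17.4 RPKM, a ratio of 1.38. The genes lie side by side on chromosome 6 (HSPA1A at chr6:31815464-31817946 and HSPA1B at chr6:31827735-31830255, both on the plus strand of GRCh38) and encode nearly the same protein. Of all stretches of 50 bases in the HSPA1A transcript, 72.6% also occurred in HSPA1B, and 71.4% of those of HSPA1B occurred in HSPA1A. The labels do not say how reads common to both were assigned, so the single values are uncertain. Their sum, 67.7 RPKM in MYOCD and 44.4 RPKM in WT (a ratio of 1.52), is less exposed to such swaps. HSPA6, which is silent in most unstressed cells and strongly induced by heat, stayed at 0.247 RPKM in MYOCD and 0.210 RPKM in WT, under the filter in both. Of its 50-base stretches 45.5% also occurred in the pseudogene HSPA7, listed at 0 in both libraries, so the level of HSPA6 is uncertain too.

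HSPA2, an HSP70 known best from male germ cells, went the other way, with 31.0 RPKM in MYOCD and 62.4 RPKM in WT. The ratio of 0.497 was just past 2-fold and the log2 change of -0.998 just short of it, so that the pseudocount set the call. Of 7456 protein-coding genes with a mean of at least 10 RPKM, HSPA2 ranked 99 from the lowest change. Its share of the HSP70 family's summed RPKM was 1.52% in MYOCD and 3.29% in WT. The gene lies at chr14:64535905-64546173 on the plus strand. Its nearest neighbour past the filter, ZBTB1, a zinc finger gene whose model lies 2.21 kb from that of HSPA2, showed a like difference, with 13.3 RPKM in MYOCD and 26.7 RPKM in WT. Over the 17 protein-coding neighbours within 1 Mb the median log2 change was 0.04, with a range of -0.97 to 1.24.

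HSPA12A, a distant relative of the family, stood at 13.6 RPKM in MYOCD and 7.52 RPKM in WT, a ratio of 1.80 and the second highest log2 change (0.81) of all chaperone genes past the filter. The gene spans chr10:116671192-116850236 on the minus strand. Its 3 neighbours within 1 Mb that passed the filter were lower in MYOCD, between -0.84 and -0.23. Its paralog HSPA12B was at the filter's edge, with 1.01 RPKM in MYOCD and 0.857 in WT. HSPA4 and HSPA4L are HSP70 relatives that act, like HSPH1, as nucleotide exchange factors. HSPA4 stood at 185 and 174 RPKM in MYOCD and WT, HSPA4L at 16.6 and 11.8 RPKM, and HSPH1 at 114 and 88.0 RPKM. The ratios of HSPA4L (1.40) and HSPH1 (1.30) were larger than that of HSPA4 (1.06). HSPA14, a ribosome-bound member, had 38.6 RPKM in MYOCD and 41.7 in WT. HSPA13, an HSP70 of microsomes, had 16.8 and 16.0 RPKM, and HSPA1L, a testis gene next to HSPA1A, had 1.04 and 1.49 RPKM.

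**Figure D2:**
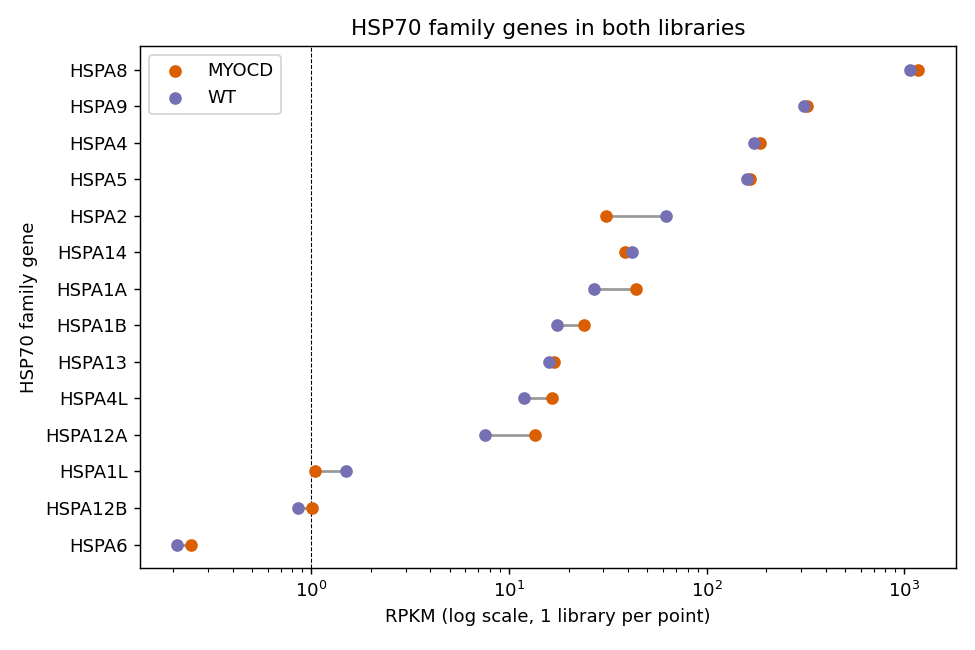
RPKM (horizontal axis, log scale) of the 14 HSP70 family genes, ordered by mean level, with 1 point for the MYOCD and 1 for the WT library. HSPA2 stands out with the MYOCD point at 31.0, left of the WT point at 62.4, while HSPA1A, HSPA1B, HSPA4L and HSPA12A have the MYOCD point on the right. The dashed line marks the 1 RPKM filter.

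HSP90AA1 was second in abundance to HSPA8 in both libraries. HSP90AA1, the stress-inducible isoform, stood at 1069 RPKM in MYOCD and 857 RPKM in WT, a ratio of 1.25, and HSP90AB1, the constitutive one, at 619 and 559 RPKM, a ratio of 1.11. The level of HSP90AA1 over that of HSP90AB1 was 1.73 in MYOCD and 1.53 in WT. Both have processed pseudogenes, and 17.5% and 18.8% of their 50-base stretches occurred in another gene.

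Because HSF1 binds inverted repeats of nGAAn, the promoters of the chaperone genes were searched for them in RefSeq windows (GRCh38.p14) from 250 bases before to 50 bases after each listed start. A window was found for 83 of the 93 genes, with 111 windows in all. That of CCT5 begins downstream of its main annotated start, so the bases before that start were not searched. A run of 3 units, GAANNTTCNNGAA or its reverse complement TTCNNGAANNTTC, occurred in windows of 7 of the genes, in 6.31% of chaperone windows and in 0.490% of all 35116 windows. The 7 were HSP90AA1, HSP90AB1, HSPA8, HSPD1, DNAJB6, DNAJA1 and HSPA6. The stretches below hold a run of 3 upstream of the listed start. The 3 units are in capitals, 5′ to 3′ on the gene's strand.
HSP90AA1: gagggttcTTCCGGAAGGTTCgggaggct
HSP90AB1: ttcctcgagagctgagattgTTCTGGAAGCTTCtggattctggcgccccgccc
HSPA8: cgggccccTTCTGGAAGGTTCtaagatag
HSPD1: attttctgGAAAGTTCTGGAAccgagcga
DNAJB6: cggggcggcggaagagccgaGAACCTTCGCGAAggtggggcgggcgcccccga
HSPA6: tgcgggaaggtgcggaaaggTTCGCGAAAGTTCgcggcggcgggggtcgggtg
They lie at chr14:102087112-102087140, chr6:44247811-44247863, chr11:123062171-123062199, chr2:197500060-197500088, chr7:157336853-157336905 and chr1:161524446-161524498, and the runs begin 88, 112, 55, 240, 131 and 74 bases upstream of the listed start. The run in the window of DNAJA1 reaches past the listed start and is not shown. Also not shown are a second run of HSP90AB1 and of HSPA8, 165 and 230 bases upstream, and an overlapping one of HSPD1 at 245. A run of 3 holds both kinds of pair below within it. The 6 of these genes that passed the filter were all above 0, between 0.14 and 0.32 with a median of 0.20. Of the 6, 2 (HSP90AA1 and DNAJB6) were higher by 1.2-fold or more, where 25.5% of all genes were. The median over the 65 counted genes with a window and no such run was 0.09. These groups were not matched in level. HSP90AA1, HSP90AB1, HSPA8, HSPD1 and DNAJA1 have a mean of at least 100 RPKM, and the 26 chaperone genes at that level had a median of 0.14. Whether the run goes with the change was not tested. A match is a string of letters and does not show that HSF1 was bound.

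The windows of HSPA1A and HSPA1B hold a pair of units, GAANNTTC, and no run of 3 in these letters. The pair alone is common, and 6.77% of all windows and 19.8% of chaperone windows had it. Of the 18 counted chaperone genes with the pair, 15 were above 0, with a range of -0.74 to 0.68. At or beyond 1.2-fold 7 of them were higher and 3 were lower, where 25.5% and 27.4% of all genes were. The stretches around the pair in HSPA1A and HSPA1B are shown because they illustrate how alike the neighbours are, with the pair in capitals.
HSPA1A: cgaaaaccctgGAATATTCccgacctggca
HSPA1B: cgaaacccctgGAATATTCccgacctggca
They lie at chr6:31815426-31815455 and chr6:31827622-31827651. They differ at 1 of 30 bases, and the whole windows, set on the pair without gaps, at 22 of 299. A CArG box, the motif that SRF binds, was in none of the 111 chaperone windows and in 1.29% of all windows. At so low a share few would be found in 111 windows, so the absence is not read as a difference. This says nothing of sites outside these windows.

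Of the 8 genes of small heat shock proteins, which hold unfolded proteins without ATP, 3 passed the filter. HSPB1 (HSP27) stood at 337 RPKM in MYOCD and 284 RPKM in WT, a ratio of 1.19, and held 91.8% of the family's summed RPKM in MYOCD and 89.1% in WT. HSPB8, the partner of BAG3 in removing damaged muscle proteins by autophagy, went the other way, with 4.75 RPKM in MYOCD and 8.27 RPKM in WT, a ratio of 0.574. Its partner BAG3 lay close to its WT level, with 46.3 RPKM in MYOCD and 47.9 RPKM in WT. HSPB11, which despite its name serves intraflagellar transport, had 25.04 and 25.8 RPKM in MYOCD and WT. The members best known from muscle were under the filter in both libraries: HSPB2, HSPB3 and HSPB7 were listed at 0 in both libraries, and HSPB6 (HSP20) had 0.141 RPKM in MYOCD and 0.674 RPKM in WT. CRYAB, the small heat shock gene of muscle and lens that carries another symbol, was also under the filter, with 0.338 RPKM in MYOCD and 0.396 in WT.

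Of the chaperonins, the mitochondrial pair lay a little above WT. HSPD1 (HSP60) stood at 635 RPKM in MYOCD and 548 RPKM in WT, and its lid HSPE1 (HSP10) at 359.7 and 333.7 RPKM. These genes lie head to head and share a promoter region, and the level of HSPD1 over that of HSPE1 was 1.76 in MYOCD and 1.64 in WT. Both have many processed pseudogenes, and 24.8% of the 50-base stretches of HSPD1 and 27.2% of those of HSPE1 occurred in other genes. The 26 HSPE1 pseudogenes in the table summed to 6.51 RPKM in MYOCD and 15.5 RPKM in WT, small beside HSPE1 itself.

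In the cytosolic chaperonin 1 subunit gene stood apart from the rest. CCT5, the epsilon subunit, stood at 560 RPKM in MYOCD and 310.1 RPKM in WT, a ratio of 1.81 and, with a log2 change of 0.85, the highest of all chaperone genes past the filter. The other subunits of the ring ranged from 0.885 to 1.25 times WT. TCP1 (alpha) stood at 207 RPKM in MYOCD and 195 in WT, CCT2 (beta) at 243 and 194, CCT3 (gamma) at 298 and 248, and CCT4 (delta) at 239 and 235. CCT6A (zeta) stood at 373 RPKM in MYOCD and 348 in WT, CCT7 (eta) at 345 and 390.3, and CCT8 (theta) at 146 and 152. CCT2 and CCT3 were thus higher by about the same step as HSP90AA1, and CCT7 and CCT8 were lower. CCT6B, the testis form of zeta, had 0.374 RPKM in MYOCD and 0.886 in WT and did not pass the filter.

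The ring holds each of its 8 subunits in equal number, and their mRNA levels were less even in MYOCD. CCT5 stood at 2.12 times the mean of the other 7 in MYOCD and 1.23 times in WT. The coefficient of variation over the 8 genes was 42.4% in MYOCD and 32.0% in WT, and without CCT5 it was 30.02% and 34.5%. Among 902 protein-coding genes with a mean of at least 100 RPKM, CCT5 had the 10th highest log2 change, and 2.77% of these genes were higher by 1.5-fold or more. The gene lies at chr5:10249921-10266412 on the plus strand. Its 6 protein-coding neighbours within 1 Mb that passed the filter were each a little lower in MYOCD, between -0.29 and -0.04, among them FAM173B, at a distance of 0.024 kb, which stood at 12.5 RPKM in MYOCD and 15.4 in WT. A share of 2.73% of the 50-base stretches of CCT5 occurred in another gene, chiefly its pseudogene CCT5P1. A noncoding gene on the opposite strand, AC012640.4, shares exon sequence with it, and the labels do not say whether counting used strand.

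**Figure D3:**
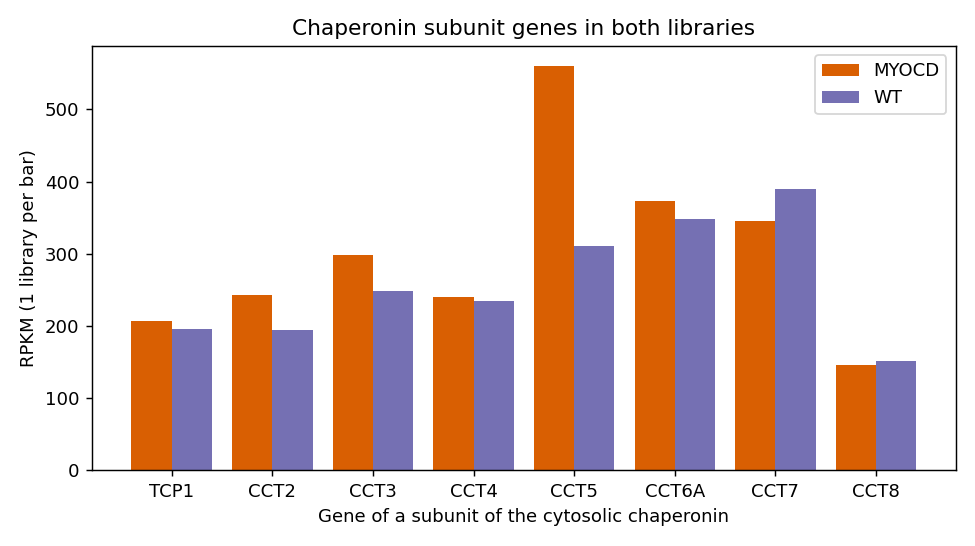
RPKM (vertical axis) of the 8 chaperonin subunit genes that passed the filter, with the MYOCD library in the left bar and the WT library in the right bar of each pair. CCT5 stands at 560 in MYOCD and 310.1 in WT, and the other pairs lie at 0.885 to 1.25 times WT.

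The J-domain genes, 42 in number, were the most numerous group. Of the 37 past the filter 25 were above 0, with a median of 0.09. At or beyond 1.2-fold 11 (29.7%) were higher and 7 (18.9%) were lower, where 25.5% and 27.4% of all genes were, so the share of higher ones was near that of all genes. The major cytosolic partners of HSPA8 were a little higher in MYOCD: DNAJA1 stood at 192 RPKM in MYOCD and 168 in WT, DNAJA2 at 49.8 and 42.9, and DNAJB1, the classic HSP40, at 84.1 and 74.1. DNAJB6, which suppresses aggregation, stood at 60.8 and 49.6 RPKM, a ratio of 1.23. DNAJB4, a close relative of DNAJB1, showed the largest difference of the DNAJB genes, with 26.3 RPKM in MYOCD and 15.9 RPKM in WT, a ratio of 1.66. It lies at chr1:77979175-78017964 on the plus strand, and the gene that shares an exon with it on that strand, GIPC2, was nearly silent (0.0449 RPKM in MYOCD and listed at 0 in WT). Over its 7 protein-coding neighbours within 1 Mb the median log2 change was -0.01, with a range of -0.24 to 1.21. The nearest, FUBP1, stood at 82.02 RPKM in MYOCD and 92.5 in WT. The actin filament gene NEXN, at 35.3 kb, stood at 3.14 and 1.62 RPKM, and AK5, an adenylate kinase gene with the highest change of the 7, at 5.33 and 2.02 RPKM. The RefSeq window of DNAJB4 holds a pair of units in the other order, TTCNNGAA, as 7.74% of all windows and 14.4% of chaperone windows do, and it is shown as that of the DNAJB gene with the largest difference, with the pair in capitals.
DNAJB4: agcatttgctgTTCTAGAAagtacagagac
It lies at chr1:78004830-78004859 on the plus strand, 98 bases upstream of the start listed. DNAJB2, which is most abundant in neurons, went the other way, with 19.3 RPKM in MYOCD and 27.0 RPKM in WT. DNAJB12, a J protein of the ER membrane, was also lower, with 16.0 and 20.6 RPKM.

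The DNAJC proteins share little beyond the J domain and serve many tasks. The most abundant lay close to their WT levels. DNAJC7, a cofactor of HSP70 and HSP90, stood at 86.2 RPKM in MYOCD and 83.3 in WT, DNAJC8, a spliceosome protein, at 42.2 and 38.2, and DNAJC2, the ribosome-bound partner of HSPA14, at 32.5 and 30.4. At or beyond 1.2-fold 7 (29.2%) of the 24 counted ones were higher and 5 (20.8%) were lower, near the 25.5% and 27.4% of all genes. The highest was DNAJC12, a cofactor of the aromatic amino acid hydroxylases, with 7.36 RPKM in MYOCD and 4.38 RPKM in WT, a ratio of 1.68. DNAJC18, at 6.49 and 4.39 RPKM, and DNAJC5 (the cysteine string protein of secretory vesicles), at 18.5 and 13.8 RPKM, came next.

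The lowest DNAJC genes were DNAJC4, DNAJC27 and DNAJC6. DNAJC4 stood at 12.004 RPKM in MYOCD and 19.9 RPKM in WT, a ratio of 0.604. Its model shares exon sequence with NUDT22, which did not differ in that direction (12.3 RPKM in MYOCD and 11.3 in WT), and 20.02% of its 50-base stretches occurred there. DNAJC6 (auxilin), which strips clathrin from vesicles, had 2.32 and 3.79 RPKM in MYOCD and WT, and DNAJC27, a small GTPase with a J domain, had 1.31 and 2.28 RPKM. Both stood at low levels, where few reads carry a value. DNAJC25 had 6.02 RPKM in MYOCD and 9.15 in WT, and its readthrough gene DNAJC25-GNG10 had 17.6 and 23.1.

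**Figure D4:**
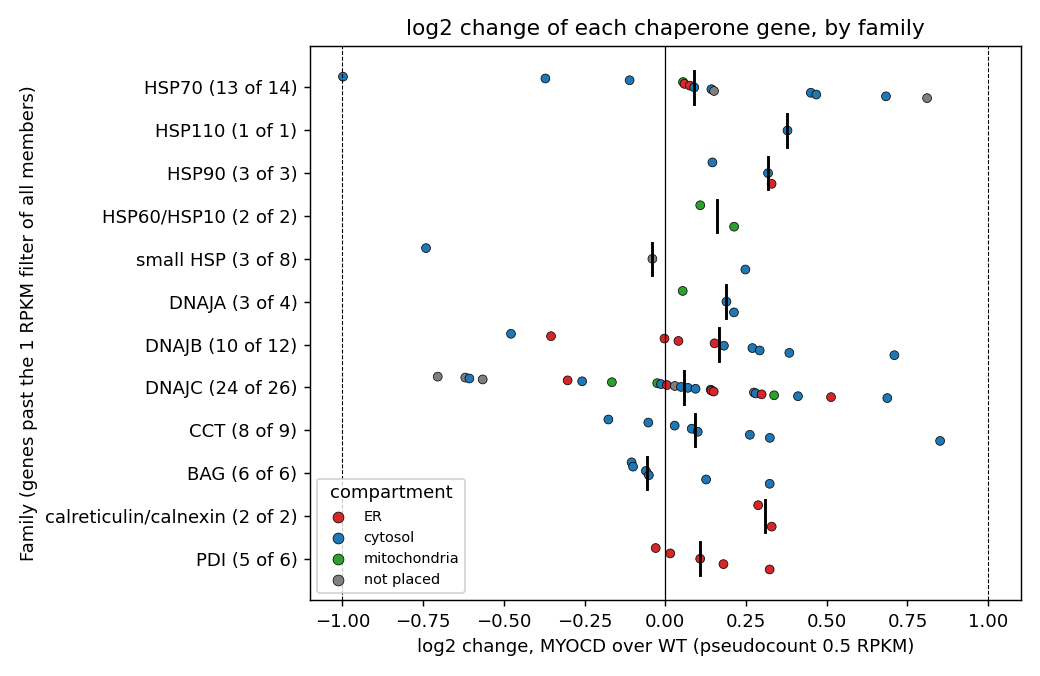
log2 change of MYOCD over WT (horizontal axis) of each chaperone gene past the 1 RPKM filter, by family, with the compartment in colour, the family median as a black bar and 2-fold as dashed lines. All 3 HSP90 genes, calreticulin, calnexin and HSPH1 lie right of 0, while HSP70 and DNAJC genes spread from -0.998 to 0.81.

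The BAG genes, several of which encode exchange factors that link HSP70 to degradation and survival pathways, showed little difference. BAG6 stood at 77.2 RPKM in MYOCD and 83.0 in WT, BAG3 at the levels given above, BAG1 at 25.1 and 26.9, and BAG5 at 17.3 and 18.0. These 4 were slightly lower in MYOCD, and BAG2 (9.73 and 8.87 RPKM) and BAG4 (14.9 and 11.8 RPKM) were higher. BAG4, with a ratio of 1.26, was the 1 gene of the 6 at or beyond 1.2-fold. Of all genes, 25.5% were higher and 27.4% were lower by that rule.

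In the ER the lectin chaperones and HSP90B1 were higher by about the same ratio. Calnexin (CANX), which is anchored in the ER membrane and binds glycoproteins through their sugars, stood at 472 RPKM in MYOCD and 376 RPKM in WT. Its soluble relative calreticulin (CALR) stood at 296 and 242 RPKM, and HSP90B1 (GRP94), the HSP90 of the ER, at 422 and 336 RPKM. The ratios were 1.26, 1.22 and 1.26. HSPA5, which works beside them, did not share the difference (ratio of 1.04), so the level of HSPA5 over that of HSP90B1 was 0.393 in MYOCD and 0.474 in WT.

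The disulfide isomerases, which form and rearrange disulfide bonds, lay nearer to WT. P4HB, the founding member and also a subunit of collagen prolyl hydroxylase, stood at 592 RPKM in MYOCD and 548.9 in WT. PDIA3 (ERp57), the partner of calnexin and calreticulin, stood at 213 and 211 RPKM, PDIA6 at 195 and 199, and PDIA4 at 123 and 108. The low member PDIA5, at 18.0 and 14.3 RPKM, had the largest ratio of the family, 1.26. PDIA2, a pancreatic form, was listed at 0 in MYOCD and had 0.241 RPKM in WT. Of the J proteins of the ER, DNAJC10 (ERdj5) stood at 78.0 and 77.8 RPKM, DNAJB11 (ERdj3) at 37.06 and 37.12, DNAJC3 (p58IPK) at 13.3 and 11.95 and DNAJB9 (ERdj4) at 8.13 and 7.89. DNAJC10 and DNAJB11 were level, and DNAJB9 differed by a ratio of 1.03.

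The ER stress element, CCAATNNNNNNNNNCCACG on either strand, which the factors ATF6 and NF-Y bind, was rare among promoters. It occurred in 27 of all 35116 windows (0.0769%), and 7 of those 27 belonged to 5 chaperone genes, CALR, CANX, HSP90B1, HSPA5 and PDIA6. The stretches are shown because these are the ER genes compared above, with the element in capitals, 5′ to 3′ on the gene's strand.
CALR: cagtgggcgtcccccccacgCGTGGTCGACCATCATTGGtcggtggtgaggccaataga
CANX: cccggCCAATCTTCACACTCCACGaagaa
HSP90B1: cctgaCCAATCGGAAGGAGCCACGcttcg
HSP90B1, a second element: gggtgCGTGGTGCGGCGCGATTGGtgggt
HSPA5: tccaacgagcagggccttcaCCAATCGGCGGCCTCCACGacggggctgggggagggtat
PDIA6: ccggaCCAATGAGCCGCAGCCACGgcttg
They lie at chr19:12938364-12938422, chr5:179698773-179698801, chr12:103930211-103930239, chr12:103930316-103930344, chr9:125241371-125241429 and chr2:10812848-10812876. Calreticulin and the second element of HSP90B1 carry it in reverse. Of these 5 genes 4 were above 0, and CALR, CANX and HSP90B1 were higher by 1.2-fold or more, while HSPA5 (ratio of 1.04) and PDIA6 (0.980) were not. The median was 0.29, against 0.11 over the 13 counted ER genes that have a window and no element. These groups were not matched in level. All 5 have a mean of at least 100 RPKM, and the 8 ER genes at that level, which include them, had a median of 0.14. Among the 902 protein-coding genes at that level, 14.5% were higher by 1.2-fold or more. Whether the element goes with the change was not tested.

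By compartment, as set by a chosen list, most counted genes of the cytosol, the ER and mitochondria lay above 0. The cytosol group of this list also takes in proteins of the nucleus. The median log2 change was 0.13 over 20 counted ER genes, 0.14 over 45 of the cytosol and 0.05 over 7 of mitochondria, with 16, 31 and 5 of them above 0. No ER or mitochondrial gene was at or beyond 1.5-fold, and 7 of the 45 cytosolic ones were, where 24.8% of all genes and 9.87% of protein-coding genes with a mean of at least 10 RPKM were in either direction. Of the 8 counted genes that the list left unplaced, 4 were above 0, with a median of -0.005, and 3 were at or beyond 1.5-fold. Whether the compartments differed was not tested. Across the 80 genes the Spearman correlation between mean RPKM and log2 change was 0.112. That between mean RPKM and the size of the change was -0.315, so that the larger differences tended to belong to less abundant genes. Both correlations are across genes, which share the same pair of libraries and are not replicates. The fall with level was not particular to chaperone genes. Of protein-coding genes past the filter 8.52% were higher and 8.89% lower by 1.5-fold or more. At a mean of at least 10 RPKM the shares were 4.88% and 4.99%, and at 100 RPKM 2.77% and 3.44%.

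Other genes of the pathway, outside the families above, also had a median above 0, but their roles differed in direction. Of 72 names listed 70 were in the table and 69 passed the filter, with a median log2 change of 0.14. At or beyond 1.2-fold 20 of the 69 were higher and 7 (10.1%) were lower, with the background shares given above. The largest difference was that of FKBP4 (FKBP52), an HSP90 cochaperone of steroid receptors, with 204 RPKM in MYOCD and 76.5 RPKM in WT, a log2 change of 1.41 and the 1 gene of this list at or beyond 2-fold. Its antagonist on those receptors, FKBP5 (FKBP51), was lower, with 10.4 RPKM in MYOCD and 16.0 RPKM in WT. The other abundant HSP90 cochaperones were closer to WT: PTGES3 (p23) stood at 396 and 355 RPKM, STIP1 (HOP) at 272 and 242, AHSA1 at 258 and 216.5, and CDC37 at 77.1 and 63.8.

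HSF1 itself stood at 51.4 RPKM in MYOCD and 43.5 in WT, and HSF2 at 5.27 and 5.80, while HSBP1, which binds and restrains HSF1, stood at 98.4 and 114. At or beyond 1.2-fold 8 (36.4%) of 22 ER folding factors were higher and 3 (13.6%) were lower, where 25.5% and 27.4% of all genes were. The highest ratios were those of FKBP7, SDF2L1, CRELD2 and FKBP10. SDF2L1 stood at 27.7 RPKM in MYOCD and 16.6 in WT, CRELD2 at 16.5 and 10.5, FKBP7 at 7.65 and 4.1999, and FKBP10, a foldase of procollagen, at 79.9 and 54.3. PPIB (cyclophilin B), the most abundant of these factors, stood at 300.7 and 245 RPKM. ERO1B, an oxidase that recharges the disulfide isomerases, was lower, with 5.02 RPKM in MYOCD and 9.91 RPKM in WT, and ERO1A was level at 51.6 and 51.5. Of 12 prefoldin and tubulin cofactor genes, which hand actin and tubulin to and from the cytosolic chaperonin, 1 (8.33%) was higher and 2 (16.7%) were lower, against the same shares of all genes. Clusterin (CLU), a secreted chaperone outside the families above, was lower, with 558 RPKM in MYOCD and 999 RPKM in WT.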

How the data were processed

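RNA-seq values of 2 libraries, 1 of MYOCD and 1 of WT, were taken as deposited. The authors' values are RPKM, per the file headers, whose key defines the column of each library. The submitters' processing notes name Bowtie 0.12.2, mm8 and GRCh38.p12 without a role. They name no counting tool, annotation or strand setting. The depth behind the RPKM is unknown, so no intervals were computed. Of 3563 genes between 0 and 0.3 RPKM in both libraries, 25.2% had ratios within 0.1 (log2) of 1.13, a hint of steps of whole reads, which were not recovered.

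The table has 57979 rows, and of several rows of 1 symbol the one with the highest mean RPKM was used, which touched 0 chaperone genes. Log2 changes used a pseudocount of 0.5 RPKM and a filter of at least 1 RPKM in 1 library, and sizes of 1.2, 1.5 and 2-fold are rules of size, not tests. Positions, types and overlaps came from GENCODE release 29 (GRCh38), which held 55675 of the symbols' identifiers. Stretches of 50 bases of each gene's longest coding transcript were searched in the transcripts of all other genes. Promoter windows came from RefSeq (GRCh38.p14). Genes named were the 4 most abundant of each family, all chaperonin subunits, those at or beyond 1.5-fold, those at the filter's edge, and pathway genes by the same size or abundance. Other genes, among them HSPA6, HSPA4L, HSPA1B, CDC37, FKBP10 and neighbours, fall outside this rule and were chosen with their values in view. The members and lists were chosen with earlier results of these data known. Python 3.11.15 and pandas 2.3.3 were used.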

Additional observations from a re-analysis of the deposited data

How the results depend on the processing

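The 11 summary values and 50 named genes were recomputed under 9 alternatives, where these apply: a pseudocount of 0.1 or 1 RPKM, no filter, at least 5 RPKM in 1 library, a mean of at least 1 RPKM, 3 other scalings and the sum of rows of a symbol. The ratio of summed RPKM has no value under another pseudocount or filter, and DNAJC27 and DNAJC6 are not counted at 5 RPKM. The scalings moved all log2 changes by -0.01 to 0.01. Of the summary values, the count of chaperone genes lower by 2-fold or more, 0 as reported, was 1 (HSPA2) with a pseudocount of 0.1 RPKM, with RPKM outside the mitochondrial genome at the same total and with the median of genes with at least 10 RPKM at 0. Over these 9 alternatives, 22 to 26 genes were higher and 7 to 14 were lower by 1.2-fold or more, the median over chaperone genes was 0.08 to 0.12, and the ratio of summed RPKM was 1.12 to 1.14. DNAJC27 had a log2 change of -0.76 with a pseudocount of 0.1 RPKM and -0.51 with 1 RPKM. Alternatives chosen after seeing the data were run on fewer values. Over the 63 genes with under 10% of their 50-base stretches in other genes the 1.2-fold counts were 20 higher and 8 lower, with a median of 0.10, and over the 68 that share no exon on their strand they were also 20 and 8, with a median of 0.12. Without CCT5 the median over chaperonin subunits was 0.08. No paired analysis was possible because each group has 1 library. Depth is unknown, and values under 1 RPKM rest on few reads.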
